A study of Mus musculus with 2 samples.

Results

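Plasminogen activation and coagulation genes were described in quadriceps muscle at 1 and 3 days post-injury. The 9 genes were taken by symbol from the 32285 genes of the files: *Plau*, *Plat*, *Plaur* and *Serpinb2* of plasminogen activation, *F3*, *F7*, *F10* and *F13a1* of coagulation, and *Thbd*, the gene of thrombomodulin. Each symbol matched 1 row. Mononuclear cells came from wild-type male mice, 14 weeks old, whose quadriceps was injected with 1.2% BaCl2, a salt that kills muscle fibers and is followed by inflammation and regeneration. Cells of 5 mice were pooled into 1 library of 10x Genomics 3′ single-cell RNA-seq per day, so day 1 and day 3 have no replicates and no test or p-value is given. Fibers, too large for the droplets, are outside these data, and cells were sorted on light scatter, frozen and thawed before the libraries were made.

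Plasmin, made from plasminogen by the urokinase (*Plau*) and tissue (*Plat*) activators, digests fibrin and other matrix proteins. The urokinase receptor (*Plaur*) holds the activator on the cell surface, and the serpin PAI-2 (*Serpinb2*) inhibits both activators. Tissue factor (*F3*) on a cell surface binds factor VII (*F7*) and starts coagulation by activating factor X (*F10*), which makes thrombin from prothrombin. Thrombin makes fibrin, factor XIII (*F13a1* encodes its A subunit) crosslinks it, and thrombomodulin turns thrombin toward activation of protein C, which slows coagulation. In muscle, plasmin and fibrin are known for their part in the entry of inflammatory cells and in the clearing of the provisional matrix.

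The promoters of 6 of the 9 genes were found in RefSeq (GRCm38.p6). The AP-1 motif TGANTCA, which is its own reverse complement apart from the N, lay in the 250 bases upstream of *Serpinb2*, *Plaur* and *F3*, and in 6.75% of 32851 windows of that length. The motif was not among these letters upstream of *F10*, *F7* and *F13a1*. The 150 bases before the start are printed for the genes with the motif and for the neighbours *F7* and *F10*, which moved in opposite directions, on the + strand, 5′ to 3′, with the AP-1 motif in capitals; the base before the start is -1.
*Serpinb2*, chr1:107511273-107511422, motif from -94: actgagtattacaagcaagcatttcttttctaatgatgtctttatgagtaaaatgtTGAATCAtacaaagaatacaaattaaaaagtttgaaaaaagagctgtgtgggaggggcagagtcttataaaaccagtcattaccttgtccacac
*Plaur*, chr7:24462333-24462482, motif from -69: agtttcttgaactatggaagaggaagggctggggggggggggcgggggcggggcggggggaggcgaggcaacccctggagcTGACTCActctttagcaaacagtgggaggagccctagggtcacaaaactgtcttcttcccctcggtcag
*F3*, chr3:121723387-121723536, motifs from -146 and -135: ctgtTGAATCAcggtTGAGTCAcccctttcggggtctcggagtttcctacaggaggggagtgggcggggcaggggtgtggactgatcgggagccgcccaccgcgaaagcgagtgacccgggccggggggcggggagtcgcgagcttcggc
*F10*, chr8:13037158-13037307: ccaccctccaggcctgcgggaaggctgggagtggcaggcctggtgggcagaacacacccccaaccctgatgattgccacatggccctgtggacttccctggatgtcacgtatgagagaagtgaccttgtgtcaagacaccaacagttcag
*F7*, chr8:13025884-13026033: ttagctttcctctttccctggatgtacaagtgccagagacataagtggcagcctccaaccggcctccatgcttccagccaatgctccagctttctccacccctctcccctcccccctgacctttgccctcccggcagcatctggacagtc

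Of 2 other motifs searched on both strands in the same windows, the TATA box TATAAA was found upstream of *Serpinb2*, and in 12.4% of all windows. The CRE motif TGACGTCA was found upstream of 0 of the 6 genes, and in 1.55% of all windows. A match of letters describes the window and shows no binding.

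The deposited counts summed to 74852240 UMIs (molecules counted by their unique identifiers) on day 1 and to 102565783 on day 3. The cells kept numbered 6735 on day 1, with a median of 9389.0 UMIs, and 4627 on day 3, with a median of 14548.0. The limit on mitochondrial UMIs removed 7.02% of the called barcodes on day 1 and 30.3% on day 3. The list of possible barcodes also differed between the days, 737280 against 6794880, although the labels name the v3.1 kit for both, and any difference in chemistry cannot be told apart from the day. The cells of the days had 0 barcodes in common.

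Cell types were called from clusters by their markers, and carry the ending -like. Monocyte/macrophage-like cells numbered 3402 on day 1 and 2488 on day 3, neutrophil-like cells 2052 and 251, dendritic cell-like cells 478 and 461, and endothelial cell-like cells 107 and 84. Fibroblasts/fibroadipogenic progenitors (FAP-like cells, 11 and 815) and satellite cell/myoblast-like cells (6 and 200) had enough cells for a level on day 3 alone. A cluster of 634 cells on day 1 and 8 on day 3, led by *Cxcl5*, *Il1rl1* and *Prg4*, had 6 of 9 FAP markers raised, with *Dcn* the most abundant at 3996 CPM, but stayed unnamed since the tenocyte marker *Thbs4* was among its leading genes. Another, led by *Plac8*, with 45 and 320 cells, stayed unnamed too, with 2 of 11 markers raised for neutrophils, the list that scored highest; *Ly6c2*, on the monocyte/macrophage list, was among its leading genes. The monocyte/macrophage-like cells of day 1 were mostly in clusters led by *F10*, *Ccl24*, *Ppbp* and *Ifitm6*, and those of day 3 in clusters led by *Fcrls*, *Gpnmb* and *Rsad2*. The cluster led by *F10* was the least certain of these, with 3 of 14 markers raised and a score of 0.67 against 0.60 for neutrophils.

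Levels are UMIs per 1000000 UMIs (CPM) with both sums taken within a cell group, and carry 95% confidence intervals (CI) of the exact Poisson kind. A log2 ratio is the CPM of day 3 over that of day 1, with 0.5 added to each count and an exact binomial interval. All intervals describe counting error alone, and say nothing of how cells, mice or libraries vary. They count the UMIs of a cell as independent, so they are too narrow where few cells hold a gene. Whether the CI of groups meet is a description and no test. CPM over all cells moves with the mix of cells as well as with the RNA of each cell, so the same ratio is also given within cell types.

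Over all cells, 7 of the 9 genes had a lower CPM on day 3, as did 27.9% of the 10388 genes with at least 500 UMIs, and 6 were lower by at least 1 log2 unit, where 4.7% of those genes were. The 9 had a median log2 ratio of -1.24, against 0.36 for the 10388. The 6 genes were *Serpinb2*, *F10*, *Plaur*, *Thbd*, *F3* and *F13a1*, of which *F13a1* was -0.63 by the mean CPM of single cells and -0.79 where cells with fewer than 200 genes per 1000 UMIs were left out, and *F3* was -0.98 with cells called from 10% of the 99th percentile of UMIs. *Plau* and *F7* were higher, and the CI of *Plat* held 0. Within monocyte/macrophage-like cells, 7 of 9 were again lower and 2 higher, where 29.7% of genes were lower. Of the 7 genes with at least 500 UMIs there, 5 were lower by at least 1 log2 unit and 2 higher, where 5.53% and 20.4% of 7988 genes were. With cells of fewer than 200 genes per 1000 UMIs left out, *F13a1* was -0.88 and *F7* 0.19 there. The median ratio was -1.31 for all 9 members, whatever their UMIs, and 0.35 for the 7988 genes with at least 500 UMIs. In dendritic cell-like cells, 3 of the 9 genes had at least 500 UMIs, and all 3 were lower by at least 1 log2 unit, where 5.11% of 2977 genes were; with clusters from log-normalized values *Plaur* was -0.70 and *F10* -0.83 there.

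**Figure D1:**
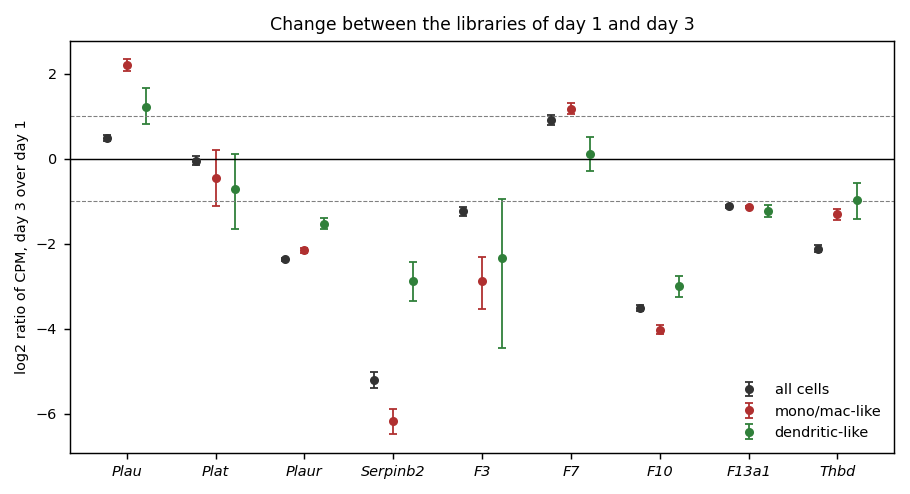
Log2 ratio of CPM, day 3 over day 1, for each gene over all cells (black), monocyte/macrophage-like cells (red) and dendritic cell-like cells (green); bars are 95% CI for counting error, and dashed lines mark 1 log2 unit. *Serpinb2* and *F10* are lowest, at -5.21 and -3.52 over all cells, and *Plau* in monocyte/macrophage-like cells is highest, at 2.20.

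*Serpinb2*, the inhibitor of the activators, had the lowest ratio of the 9 over all cells and in monocyte/macrophage-like cells. It lies on chromosome 1 (GRCm38, 107511423 to 107535478, + strand) and overlaps *Serpinb10* on the same strand, so reads in the overlap cannot be told apart. Over all cells it had 112 CPM (95% CI, 109.5 to 114) on day 1 and 3.03 CPM (2.67 to 3.42) on day 3, a log2 ratio of -5.21 (-5.39 to -5.03). Monocyte/macrophage-like cells went from 172 CPM (168 to 176) to 2.37 CPM (1.93 to 2.89). This log2 ratio of -6.17 (-6.48 to -5.89) ranked 3 from the lowest of 7988 genes, and was -4.24 where cells with fewer than 200 genes per 1000 UMIs were left out. Clusters led by *Il1a* and *Ankrd37*, with 855 and 712 cells of day 1, then had no name. The unnamed cluster led by *Plac8* is outside the monocyte/macrophage-like cells.

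The day 1 level of *Serpinb2* was carried by few cells. Monocyte/macrophage-like cells held 85.1% of its UMIs, and from 31.4% to 91.2% with cells called, clustered or named in other ways. A UMI was found in 15.1% of monocyte/macrophage-like cells, whose median depth was 11138.5 UMIs, and the 10% of cells with the most *Serpinb2* held 97.0% of its UMIs there, with up to 150 in a single cell. With cells of at least 2000 UMIs thinned to that depth, the share was 9.35% on day 1 and 0.565% on day 3. This left out 74 and 21 shallower monocyte/macrophage-like cells. In satellite cell/myoblast-like cells of day 3, a muscle lineage with a median of 44104.0 UMIs, 0 UMIs were found, which allows up to 0.337 CPM. On day 1, *Serpinb2* was also found outside monocyte/macrophage-like cells. The unnamed cluster led by *Cxcl5* held 8.30% of its UMIs (661), dendritic cell-like cells 4.85% (386) and endothelial cell-like cells 0.753% (60). Among the day 1 monocyte/macrophage-like clusters, 288 CPM (278 to 298) were found in the cluster led by *Ccl24* and 264 CPM (254 to 274) in that led by *F10*. The clusters led by *Ppbp* and *Ifitm6* had 49.3 CPM (45.2 to 53.8) and 29.1 CPM (25.0 to 33.6). The CI of the former pair did not meet those of the latter, but they leave out the spread between cells. On day 3, the cluster led by *Plac8* had 35.2 CPM (28.5 to 42.9) and held 37.6% of the UMIs that remained. The cluster led by *Ifitm6* had 10.7 CPM (3.94 to 23.4), from 6 UMIs, and dendritic cell-like cells had 8.49 CPM (6.19 to 11.4), which did not differ beyond their CI. In the cluster led by *Gpnmb*, 2 UMIs were found in 612 cells.

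*Plaur*, the receptor, was found in every group, and its level was highest in neutrophil-like cells of day 1. It lies on chromosome 7 (24462484 to 24475968, + strand). Over all cells it had 346 CPM (342 to 351) on day 1 and 67.0 CPM (65.3 to 68.8) on day 3, a log2 ratio of -2.37 (-2.41 to -2.33). Neutrophil-like cells had 999.8 CPM (973 to 1028) on day 1 and 192 CPM (163 to 226) on day 3, and monocyte/macrophage-like cells 359 CPM (353 to 365) and 80.6 CPM (77.9 to 83.4). All 4 cell types with enough cells on both days were lower on day 3, with log2 ratios of -2.37 in neutrophil-like, -2.15 in monocyte/macrophage-like, -1.53 in dendritic cell-like and -3.58 in endothelial cell-like cells. The ratio was -0.70 in dendritic cell-like cells with clusters from log-normalized values. With each cell named by its highest marker score, it was -1.93 in endothelial cell-like and -1.37 in neutrophil-like cells. It was -1.54 in monocyte/macrophage-like cells where cells with fewer than 200 genes per 1000 UMIs were left out. Monocyte/macrophage-like cells held 57.5% of the *Plaur* UMIs on day 1 (24.2% to 65.5% with cells called, clustered or named in other ways) and 59.6% on day 3, and neutrophil-like cells 20.7% and 2.64%. The day 3 share of neutrophil-like cells ranged from 2.20% to 13.7% in those other ways. At 2000 UMIs per cell, a UMI was found in 73.3% of neutrophil-like cells of day 1, and in 46.2% of monocyte/macrophage-like cells on day 1 against 15.1% on day 3. That depth left out 784 of the 2052 neutrophil-like cells of day 1. The day 1 endothelial cell-like cells, at 506 CPM (463 to 552), also held 3611 CPM of the 11 neutrophil markers, all of them found and *S100a8* the most abundant at 1319 CPM, against 105 CPM on day 3; their part in the level of *Plaur* was not tested.

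The activators differed in the cells that held them. *Plau* (chromosome 14, 20836660 to 20843385, + strand) had 34.1 CPM (32.8 to 35.5) over all cells on day 1 and 48.0 CPM (46.5 to 49.5) on day 3, a log2 ratio of 0.49 (0.42 to 0.56), where the median gene had 0.36. It was 1.66 where cells with fewer than 200 genes per 1000 UMIs were left out. The cells that held its UMIs differed between the days. The unnamed cluster led by *Cxcl5* held 71.9% of them on day 1, at 93.6 CPM (89.2 to 98.1), and monocyte/macrophage-like cells 22.8%, at 14.1 CPM (12.9 to 15.3). On day 3, monocyte/macrophage-like cells held 66.5%, at 64.5 CPM (62.1 to 67.0), and FAP-like cells 25.9%, at 43.3 CPM (40.7 to 46.0). The log2 ratio of *Plau* in monocyte/macrophage-like cells was 2.20 (2.06 to 2.33), at the 95.4 percentile of the 7988 genes with at least 500 UMIs there. It was 1.22 (0.81 to 1.66) in dendritic cell-like cells, and 0.13 there with clusters from log-normalized values.

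Among the monocyte/macrophage-like clusters with at least 50 cells on day 3, *Plau* was highest in that led by *Fcrls*, at 85.6 CPM (81.8 to 89.5). This cluster held 47.0% of all *Plau* UMIs of that day. The clusters led by *Gpnmb* and *Rsad2*, at 41.7 CPM (38.3 to 45.4) and 39.9 CPM (34.7 to 45.5), did not differ beyond their CI. All 4 day 1 clusters were lower, between 5.40 and 20.2 CPM. A *Plau* UMI was found in 11.8% of monocyte/macrophage-like cells on day 1 and 42.7% on day 3, or 2.68% and 10.4% at 2000 UMIs per cell. Neutrophil-like cells of day 1, with a median of 2157.5 UMIs, gave 0.609% at that depth.

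*Plat* (chromosome 8, 22757727 to 22782844, + strand) was a gene of stromal cells on both days. Over all cells there were 19.9 CPM (18.9 to 21.0) on day 1 and 19.3 CPM (18.4 to 20.2) on day 3. The log2 ratio of -0.05 (-0.15 to 0.06) did not differ from 0 beyond counting error, but was 0.80 where cells with fewer than 200 genes per 1000 UMIs were left out. The unnamed cluster led by *Cxcl5* held 91.3% of the UMIs on day 1, at 69.3 CPM (65.6 to 73.2), and FAP-like cells 93.6% on day 3 (49.4% to 94.5% with cells called, clustered or named in other ways), at 62.9 CPM (59.8 to 66.1). In monocyte/macrophage-like cells 48 UMIs were found on day 1 and 37 on day 3, or 1.22 CPM and 0.887 CPM, of which 26.1% and 45.1% were the number estimated from free (ambient) RNA. Endothelial cell-like cells of day 1 had 22.0 CPM (13.8 to 33.4), from 22 UMIs.

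**Figure D2:**
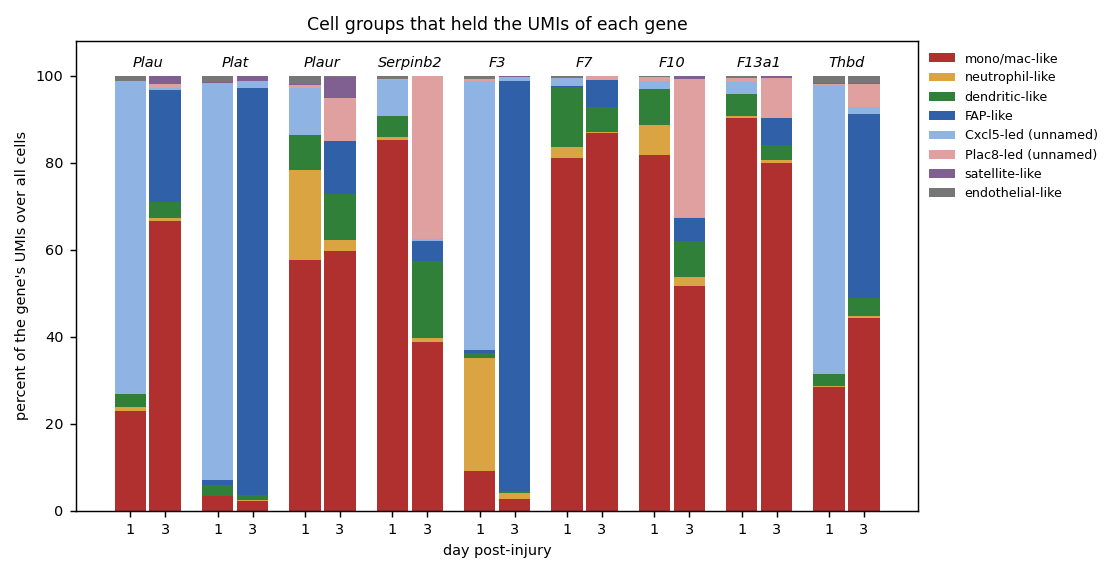
Percent of each gene's UMIs held by each cell group on day 1 (left bar of a pair) and day 3 (right bar); the groups add up to all cells. *Plau* moves from the unnamed cluster led by *Cxcl5* (71.9% on day 1) to monocyte/macrophage-like cells (66.5% on day 3), while *Plat* stays in stromal groups (91.3% and 93.6%).

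Tissue factor was found in stromal cells on both days and in neutrophil-like cells on day 1. *F3* (chromosome 3, 121723537 to 121735048, + strand) had 29.3 CPM (28.0 to 30.6) over all cells on day 1 and 12.4 CPM (11.6 to 13.2) on day 3, a log2 ratio of -1.24 (-1.35 to -1.13). This ratio was -2.04 by the mean CPM of single cells and -0.98 with cells called from 10% of the 99th percentile of UMIs. The unnamed cluster led by *Cxcl5* held 62.0% of the UMIs on day 1, at 69.2 CPM (65.5 to 73.1), and neutrophil-like cells 25.9%, at 106 CPM (97.0 to 115). On day 3, FAP-like cells held 94.3%, at 40.7 CPM (38.2 to 43.3), and neutrophil-like cells 1.54%, at 20.6 CPM (11.8 to 33.5) from 16 UMIs. Of the neutrophil-like clusters of day 1, that led by *Acod1* had 128 CPM (115 to 142) and that led by *Retnlg*, whose leading genes also include *S100a8* and *S100a9*, had 75.3 CPM (64.1 to 87.8). At 2000 UMIs per cell, an *F3* UMI was found in 16.7% of cells of the former and 8.66% of the latter, and in 0.849% of monocyte/macrophage-like cells of day 1. That depth left out 206 of the 982 cells led by *Acod1* and 578 of the 1070 led by *Retnlg*. Of the *F3* UMIs of day 1 neutrophil-like cells, 0.557% were the number estimated from ambient RNA. Monocyte/macrophage-like cells had 4.84 CPM (4.18 to 5.58) on day 1 and 0.647 CPM (0.427 to 0.942) on day 3, from 191 and 27 UMIs.

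*F10* and *F7* are neighbours on chromosome 8, on the + strand, *F7* from 13026034 to 13035809 and *F10* from 13037308 to 13056676, with 1498 bases between them. Monocyte/macrophage-like cells held 81.6% of the *F10* UMIs of day 1 (27.6% to 90.4% with cells called, clustered or named in other ways) and most of those of *F7*, and the levels of the genes moved in opposite directions between the days. The clusters of 817 and 798 day 1 cells described for *Serpinb2* were then outside the monocyte/macrophage-like cells. *F10* had 230.4 CPM (227 to 234) over all cells on day 1 and 20.1 CPM (19.1 to 21.0) on day 3, a log2 ratio of -3.52 (-3.59 to -3.45). *F7* had 10.9 CPM (10.2 to 11.7) and 20.5 CPM (19.5 to 21.5), a log2 ratio of 0.91 (0.79 to 1.03). The ratio of *F7* was 0.27 where cells with fewer than 200 genes per 1000 UMIs were left out.

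In monocyte/macrophage-like cells, *F10* had 339 CPM (333 to 345) on day 1 and 20.9 CPM (19.5 to 22.3) on day 3, and its log2 ratio of -4.02 (-4.12 to -3.92) ranked 19 from the lowest of 7988 genes. It was -2.34 where cells with fewer than 200 genes per 1000 UMIs were left out. A cluster led by *Il1a*, with *F10* among its 10 leading genes, and another led by *Ankrd37* then had no name. Dendritic cell-like cells went from 217 CPM (205 to 229) to 27.0 CPM (22.7 to 31.8), a log2 ratio of -3.00 that was -0.83 with clusters from log-normalized values, and neutrophil-like cells from 226 CPM (214 to 239.9) to 45.1 CPM (31.4 to 62.8), a log2 ratio of -2.31 that was 0.083 with the libraries clustered separately. The neutrophil-like cells of day 3 then included 369 cells led by *Wfdc21*, *Lcn2* and *Ifitm6*, with a median of 8736.0 UMIs. *F10* and *Plac8* were among the 10 leading genes of that cluster. On day 1, 674 cells led by *Il23a*, which scored highest for neutrophils, had no name, so the sets are unlike. The *F10* UMIs of day 1 were spread over the clusters, with 470.5 CPM (457 to 484) in the one led by *F10* itself, 392 CPM (381 to 404) in that led by *Ccl24*, 305 CPM (292 to 319) in that led by *Ifitm6* and 184 CPM (176 to 192) in that led by *Ppbp*. No pair of these CI met. On day 3 the highest levels were in the clusters led by *Plac8*, at 196 CPM (180.1 to 214), and *Ifitm6*, at 152 CPM (121 to 188), which did not differ beyond their CI. The cluster led by *Plac8* held 31.7% of the day 3 UMIs. The clusters led by *Rsad2*, *Fcrls* and *Gpnmb* had 43.0 CPM (37.7 to 48.9), 16.8 CPM (15.1 to 18.6) and 10.8 CPM (9.09 to 12.7). At 2000 UMIs per cell, the share of monocyte/macrophage-like cells with an *F10* UMI was 36.7% on day 1 and 4.70% on day 3, and that of FAP-like cells of day 3, which have a median of 26186.0 UMIs, was 0.637%.

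*F7* had 15.9 CPM (14.7 to 17.2) in monocyte/macrophage-like cells on day 1 and 35.9 CPM (34.1 to 37.8) on day 3, a log2 ratio of 1.17 (1.04 to 1.31). These cells held 81.0% of its UMIs on day 1 and 86.8% on day 3. A single cluster carried the day 3 level: that led by *Gpnmb* had 81.2 CPM (76.4 to 86.2) and held 61.9% of the *F7* UMIs with 13.2% of the cells. The clusters led by *Fcrls* and *Rsad2* had 17.0 CPM (15.3 to 18.8) and 5.51 CPM (3.72 to 7.87), and those of day 1 led by *Ppbp* and *Ccl24* had 22.5 CPM (19.8 to 25.6) and 21.8 CPM (19.2 to 24.7). Dendritic cell-like cells had 17.3 CPM (14.2 to 21.0) on day 1 and 18.7 CPM (15.2 to 22.7) on day 3, a difference within counting error (log2 ratio 0.11, -0.30 to 0.52). The ratio in monocyte/macrophage-like cells fell to 0.19 where cells with fewer than 200 genes per 1000 UMIs were left out (5679 cells of day 1 and 3317 of day 3 remained), and clusters led by *Il1a* and *Ankrd37* then had no name.

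**Figure D3:**
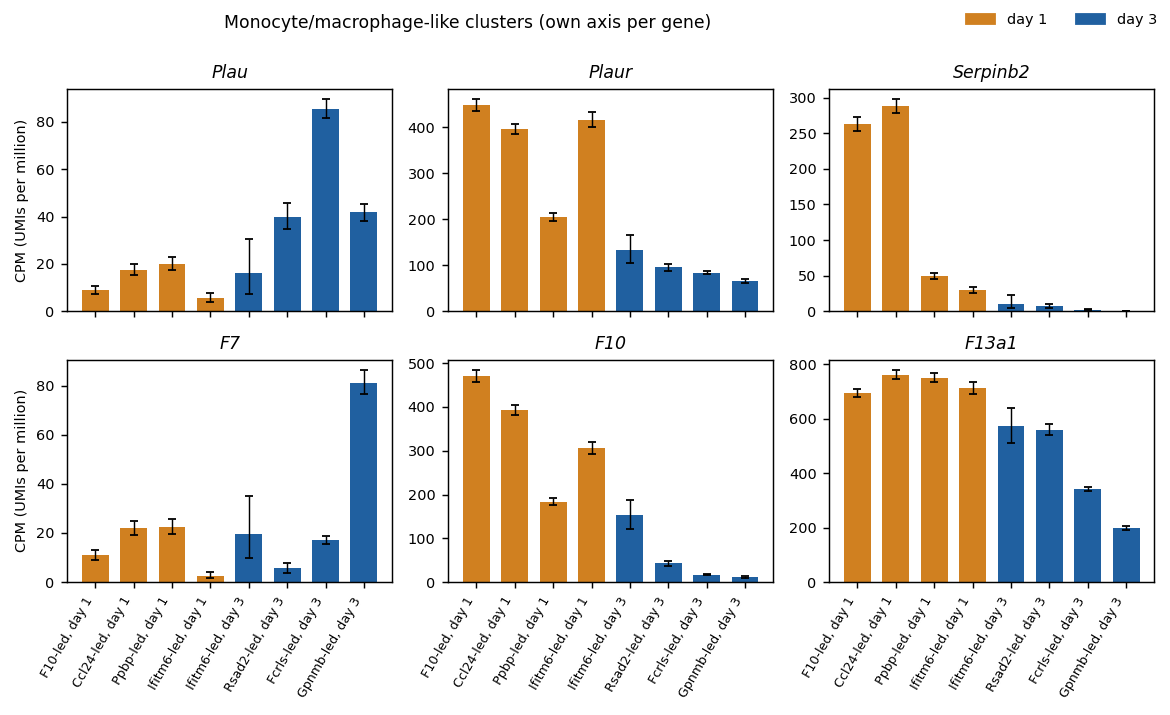
CPM of 6 genes in the monocyte/macrophage-like clusters with at least 50 cells on a day (orange, day 1; blue, day 3); bars start at 0, each gene has its own axis, and error bars are 95% CI for counting error. *Serpinb2* is high in the clusters led by *Ccl24* and *F10* (288 and 264 CPM), *F7* in that led by *Gpnmb* (81.2 CPM) and *Plau* in that led by *Fcrls* (85.6 CPM).

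Monocyte/macrophage-like cells held 90.3% of the *F13a1* UMIs on day 1 (51.3% to 95.9% with cells called, clustered or named in other ways) and 80.0% on day 3. It lies on chromosome 13 (36867178 to 37050244, - strand), and *Gm49144* and *Gm30489* overlap it on the other strand. Over all cells it had 449 CPM (444 to 454) on day 1 and 206 CPM (203 to 209) on day 3, a log2 ratio of -1.13 (-1.15 to -1.10). Monocyte/macrophage-like cells went from 730.5 CPM (722 to 739) to 332 CPM (326 to 337), a log2 ratio of -1.14 (-1.17 to -1.11). The day 1 clusters lay close together, between 695 CPM and 763 CPM, while those of day 3 lay apart. They had 574 CPM (513 to 641) in the cluster led by *Ifitm6*, 560.4 CPM (541 to 581) in that led by *Rsad2*, 342 CPM (335 to 350.1) in that led by *Fcrls* and 198 CPM (191 to 206) in that led by *Gpnmb*, of which only the first pair did not differ beyond the CI. The unnamed cluster led by *Plac8* had 579 CPM (551 to 608). At 2000 UMIs per cell, 66.0% of monocyte/macrophage-like cells had an *F13a1* UMI on day 1 and 41.1% on day 3, against 1.61% of neutrophil-like cells on day 1. Factor XIII is also a protein of platelets. Of the 6 platelet markers, *Gp9*, *Gp6*, *Gp1ba* and *Tubb1* were at 0 in monocyte/macrophage-like cells on both days, and the list summed to 0.2 CPM and 0.4 CPM. *Pf4* (platelet factor 4) and *Ppbp* (pro-platelet basic protein) were not on this list. Both were among the 10 leading genes of the day 1 clusters led by *Ccl24* and *Ppbp*. The part of platelets in the level of *F13a1* was not tested.

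*Thbd* (chromosome 2, 148404466 to 148408188, - strand) is known from endothelium, and was found in stromal, endothelial and myeloid cells here. Over all cells it had 87.6 CPM (85.5 to 89.8) on day 1 and 20.1 CPM (19.2 to 21.1) on day 3, a log2 ratio of -2.12 (-2.20 to -2.04), which was -1.29 where cells with fewer than 200 genes per 1000 UMIs were left out. The unnamed cluster led by *Cxcl5* held 66.4% of the UMIs on day 1, at 222 CPM (215 to 229). Endothelial cell-like cells followed with 112 CPM (92.4 to 135), and monocyte/macrophage-like cells had 44.7 CPM (42.7 to 46.9). On day 3, among groups with at least 50 cells, endothelial cell-like cells were highest at 63.9 CPM (42.5 to 92.4). The unnamed cluster led by *Plac8*, at 32.2 CPM (25.9 to 39.7), and FAP-like cells, at 29.6 CPM (27.5 to 31.9), followed and did not differ beyond their CI. Monocyte/macrophage-like cells had 18.0 CPM (16.7 to 19.3). In the 8 cells of the cluster led by *Cxcl5*, 28 UMIs were found. The log2 ratio was -1.31 (-1.44 to -1.19) in monocyte/macrophage-like cells and -0.79 (-1.46 to -0.20) in endothelial cell-like cells. By the mean CPM of single cells, it was -1.73 in endothelial cell-like cells. Endothelial cell-like cells are few, so they held 1.80% of the *Thbd* UMIs on day 1 and 1.65% on day 3.

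With the libraries clustered separately, an alternative to the naming used above, FAP-like cells were called on both days, 634 on day 1 and 550 on day 3. A further cluster of 307 cells of day 3, led by *Tnc*, *Col8a1* and *Acta2* and with 8 of 9 FAP markers raised, stayed unnamed and is left out, while a day 1 cluster with *Tnc* among its leading genes is included, so the sets of the days are unlike. *Plau* then had 93.3 CPM on day 1 and 44.3 CPM on day 3, a log2 ratio of -1.07 (-1.21 to -0.94), opposite in sign to that in monocyte/macrophage-like cells. *F3* went from 70.3 to 37.8 CPM (-0.89, -1.04 to -0.75) and *Plat* from 71.0 to 55.3 CPM (-0.36, -0.49 to -0.23), where the 815 FAP-like cells of the naming used above had 62.9 CPM on day 3. *Thbd* went from 225 to 40.6 CPM (-2.47, -2.59 to -2.34). The genes held mainly by monocyte/macrophage-like cells had lower levels there, as *F10* with 18.4 and 4.62 CPM and *F7* with 0.825 and 7.04 CPM.

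**Figure D4:**
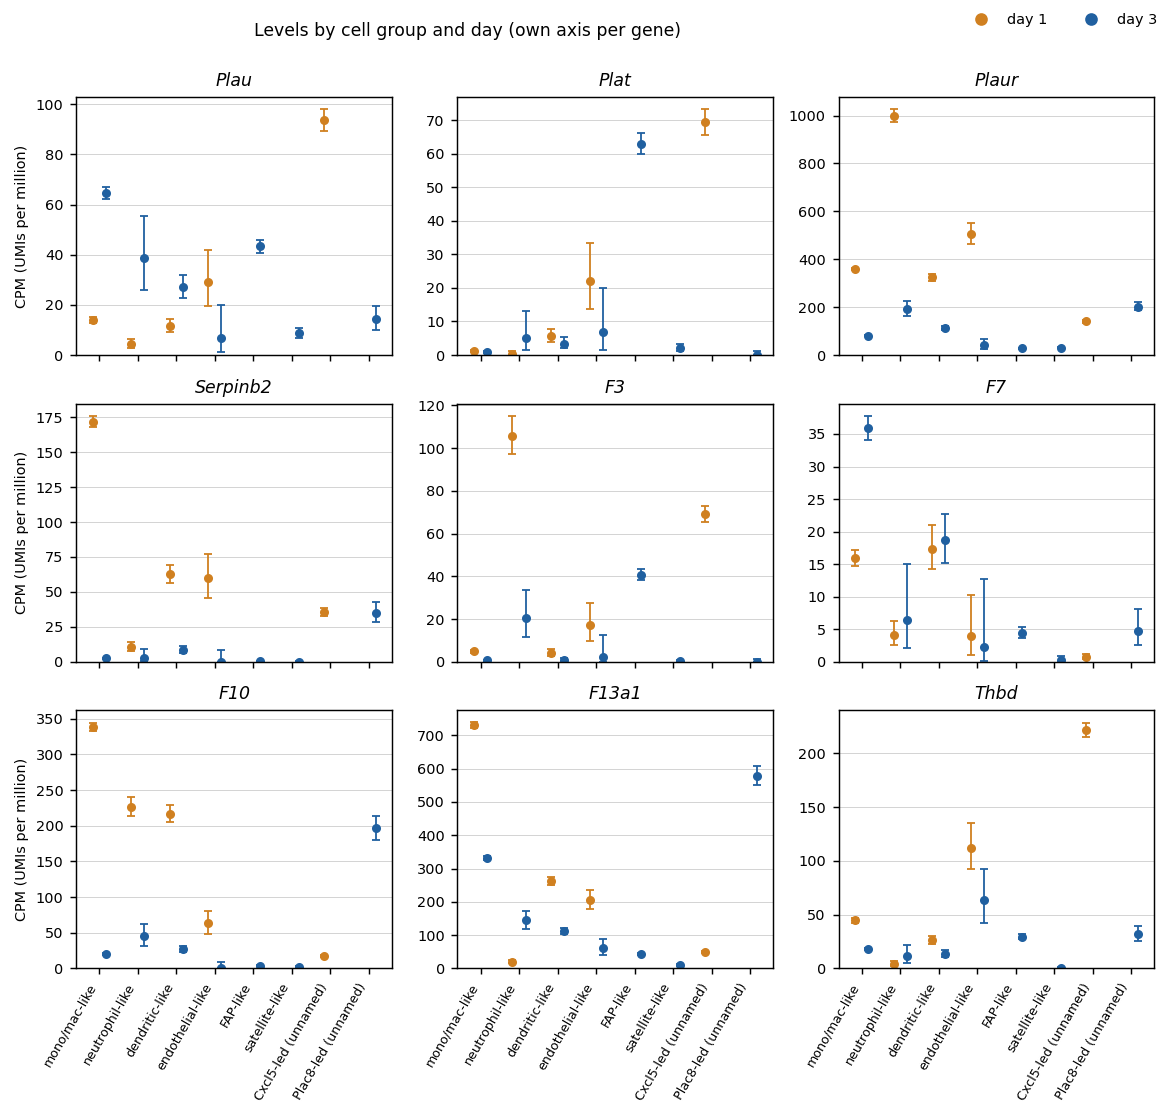
CPM of each gene by cell group (orange, day 1; blue, day 3), for groups with at least 50 cells on that day; bars are 95% CI for counting error, and each gene has its own axis. *Plat*, *F3*, *Thbd* and, on day 1, *Plau* are high in the unnamed cluster led by *Cxcl5*, *Plaur* in neutrophil-like cells of day 1 (999.8 CPM), and *F10*, *Serpinb2* and *F13a1* in monocyte/macrophage-like cells of day 1.

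In monocyte/macrophage-like cells, the 11 neutrophil markers summed to 1749 CPM on day 1 and 299 CPM on day 3, all 11 found on both days, with *S100a8* the most abundant at 914 CPM and 186 CPM. In neutrophil-like cells they summed to 92185 CPM on day 1. The neutrophil-like cells of day 3 were shallow, with a median of 1634.0 UMIs, and 30.3% of their UMIs were estimated as ambient RNA, against 2.02% on day 1. The 14 monocyte/macrophage markers, all found, summed to 497 CPM there on day 1 and 5616 CPM on day 3, with *C1qb* the most abundant on day 3 at 1120 CPM. With the number estimated from ambient RNA subtracted, the log2 ratio of *Thbd* in neutrophil-like cells was -2.28 in place of 1.48, while that of *F10* was -2.41 in place of -2.31; the part of other cells in these levels was not tested.

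The rest of the pathway was read from a list of 43 genes, all in the files. Over all cells, 17 of them had at least 500 UMIs, 3 were lower by at least 1 log2 unit on day 3 (4.7% of all genes were), 2 were higher by as much (20.9% of all genes were) and 12 lay between. The lower genes were *Eno1*, a glycolytic enzyme that also binds plasminogen at the cell surface, from 624 to 286 CPM (log2 ratio -1.12), *Procr*, the receptor of protein C, from 34.6 to 13.2 CPM (-1.39), and *Tgm2*, a tissue transglutaminase, from 218 to 92.6 CPM (-1.24). The higher genes were both of the vitamin K cycle, which modifies factors VII and X: *Ggcx*, the carboxylase, from 3.26 to 13.9 CPM (2.09), and *Vkorc1*, the reductase, from 31.7 to 126 CPM (1.998). The plasminogen receptor genes *Plgrkt*, *Anxa2* and *S100a10* had log2 ratios of -0.03, -0.12 and -0.59. These 17 genes had a median log2 ratio of 0.04.

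In monocyte/macrophage-like cells, 11 of the 43 had at least 500 UMIs, of which 1 was lower by at least 1 log2 unit (5.53% of all genes were), 3 were higher (20.4% of all genes were) and 7 lay between. *Eno1* was lower (-1.63). *Vkorc1* was higher, from 10.9 to 63.1 CPM (2.53), as were *Serpine2*, an inhibitor of urokinase and thrombin, from 2.18 to 11.8 CPM (2.43), and *Tfpi*, the inhibitor of the tissue factor pathway, from 3.90 to 14.4 CPM (1.88). Some genes of plasma proteins were hardly found: plasminogen (*Plg*) had 0 UMIs over all cells on day 1 and 1 on day 3, prothrombin (*F2*) 3 and 6, and the fibrinogen genes *Fga*, *Fgb* and *Fgg* together with 1 and 2.

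The genes whose levels were most like those of the members were read over the 10 pairs of cell type and day with at least 50 cells, by Pearson's r of log2(CPM + 1) among 10272 genes. The points share 2 libraries, so r is a description. *Serpinb2* was nearest to *Ccl24* (r = 0.96), *Gm48065* (0.956) and *Dhrs11* (0.95). *F10* was nearest to *Klra2* (0.981), *Bbip1* (0.971) and *Gm9733* (0.971), and *F7* to the lysosomal genes *Psap* (0.979) and *Ctsa* (0.974) and to *Scamp2* (0.973). *F13a1* was nearest to *Slc7a8* (0.991), *Msr1* (0.986) and *Pf4* (0.97), and *Plau* to *Tmem119* (0.963), *Olfr920* (0.947) and *Use1* (0.942). For *Plat* they were *Thbs2* (0.934), *Ccl11* (0.919) and *S1pr3* (0.912), for *F3* *Crispld2* (0.977), *Golph3* (0.96) and *Svil* (0.941), for *Plaur* *Phf23* (0.976), *Cflar* (0.971) and *Clk3* (0.967), and for *Thbd* *Ttc17* (0.939), *Itga1* (0.928) and *Myl6* (0.928). The unnamed clusters, where much of *Plau*, *F3* and *Thbd* lay on day 1, are outside these 10 points.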

How the data were processed

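Cells from quadriceps at 1 and 3 days post-injury were used, 1 library per day of 5 pooled mice, and the other samples were left aside. The counts the authors deposited are raw UMIs, not normalized, for every gene and every possible barcode; the submitters' processing notes name Cell Ranger 5.0.0 (the matrix headers name Cell Ranger 4) and mm10, which is GRCm38, the build of the coordinates given here. Day 1 had 74852240 UMIs in all and day 3 had 102565783, and the number of columns of other samples in these files was 0.

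The 7367 and 6640 barcodes with the most UMIs were taken, after the number of cells the study gives, and those with fewer than 1000 UMIs, fewer than 200 genes or a mitochondrial share over 7.5% were dropped. The automatic call of Scrublet marked 2 and 0 doublets and did not work, so doublets stayed in, and in an alternative the 363 and 171 highest scores were removed. Both libraries were clustered together with SCTransform (Seurat 5.3.0, sctransform 0.4.2, R 4.3.3) on 3000 variable features without the markers and the genes described here, with 10 principal components and a resolution of 0.8. A cluster took the name whose markers scored highest if at least 3 of them were raised by 1.5-fold, unless another list had more of its markers in the 10 leading genes.

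CPM, shares and intervals were computed with Python 3.11.15, numpy 2.4.6, scipy 1.17.1, pandas 2.3.3 and scanpy 1.11.5; shares of cells have Clopper-Pearson intervals. Shares at 2000 UMIs are the expected share after drawing that many UMIs from each cell, and left out 881 and 250 shallower cells. Of these, 784 and 192 were neutrophil-like. Ambient RNA was taken from the barcodes of 100 UMIs or fewer and scaled by fibroblast collagen genes, *Dcn* or neutrophil genes. The upper limit for 0 UMIs is that of 3 UMIs, at a confidence level of 95%. The computation of the ratios was checked on simulated data for monocyte/macrophage-like cells with 7988 genes, of which 200 were changed. All 200 intervals lay on the right side of 0 and 95.1% of all intervals held the true ratio. The counts were drawn as independent Poisson counts, the model the intervals assume. The check therefore cannot show how well the intervals hold where UMIs vary between cells. The genes named are the 9 members, the listed pathway genes with at least 500 UMIs and a log2 ratio of at least 1 in size, and the 3 genes most like each member; pathway genes beside these were named after their values were seen. The members, lists and markers were chosen with earlier results of these data known. The alternatives varied 1 step at a time: which barcodes count as cells, the limits on quality, doublets, scaling, depth, ambient RNA, clustering and naming.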

Additional observations from a re-analysis of the deposited data

Results flagged for a closer look

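For 3 genes the log2 ratio between the days (CPM of day 3 over that of day 1) had intervals on opposite sides of 0 in different cell types, and the difference between the cell types was not tested. *Plau* was 3.16 in neutrophil-like cells, from 22 and 30 UMIs, and -1.89 in endothelial cell-like cells, from 29 and 3 UMIs. *F13a1* was 2.84 in neutrophil-like cells, from 103 and 112 UMIs, and -1.72 in endothelial cell-like cells, from 206 and 27 UMIs. *Thbd* was 1.48 in neutrophil-like cells, from 22 and 9 UMIs, and -1.31 in monocyte/macrophage-like cells, from 1766 and 750 UMIs. In neutrophil-like cells of day 3, the number estimated from ambient RNA came to 29.7% of the *Plau* UMIs, 22.0% of the *F13a1* UMIs and 110.0% of the *Thbd* UMIs. With that number subtracted, their ratios were 2.87, 3.00 and -2.28. With each library clustered on its own, *Plau* was -1.02 in neutrophil-like cells, which on day 3 then included 369 cells led by *Wfdc21*, *Lcn2* and *Ifitm6*. With each cell named by its highest marker score, *F13a1* was -0.22 in neutrophil-like and *Plau* 0.53 in endothelial cell-like cells.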

How the results depend on the processing

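The counts of genes with lower CPM on day 3, 7 over all cells and 7 in monocyte/macrophage-like cells, were 6 or 7 under every alternative that gives them. Log2 ratios whose interval did not hold 0 changed sign under an alternative 10 times. In neutrophil-like cells, *Thbd* was -0.20 with clusters from log-normalized values, -0.16 with each library clustered on its own, -2.18 with each cell named by its highest marker score and -2.28 with ambient RNA subtracted. With each library clustered on its own, *Plau* was -1.02, *Plat* -2.73, *Serpinb2* 0.029 and *F10* 0.083 in neutrophil-like cells. On day 3 these then included 369 cells led by *Wfdc21*, *Lcn2* and *Ifitm6*, with *F10* and *Plac8* among the 10 leading genes. With the highest marker score, *F13a1* was -0.22 in neutrophil-like cells and *Plau* 0.53 in endothelial cell-like cells. The cause was not tested. With fewer than 200 genes per 1000 UMIs left out, *Plau* over all cells was 1.66, *Plat* 0.80, and in monocyte/macrophage-like cells *F10* was -2.34, *Serpinb2* -4.24 and *F7* 0.19. Ratios whose interval held 0 took both signs as well: *Plat* over all cells (-0.41 to 0.80), in monocyte/macrophage-like (-0.87 to 0.026) and in dendritic cell-like cells (-1.52 to 0.50), and *F7* in dendritic cell-like (-1.97 to 0.49), neutrophil-like (-2.67 to 1.92) and endothelial cell-like cells (from -0.40 up to 1.56). The share of *Serpinb2* UMIs of day 1 held by monocyte/macrophage-like cells ranged from 31.4% to 91.2%, and that of *F10* from 27.6% to 90.4%. Among these alternatives, clusters of 817 and 798 day 1 cells with *Serpinb2* among their leading genes were named neutrophil-like or had no name. The share of *F3* UMIs ranged from 11.4% to 37.0% in neutrophil-like cells of day 1 and from 52.6% to 95.6% in FAP-like cells of day 3, that of *Plau* from 15.7% to 37.0% in monocyte/macrophage-like cells of day 1, and that of *F7* from 51.1% to 95.2% there. No paired analysis was possible because each day has 1 library. Depth limits the values of endothelial cell-like cells and of neutrophil-like cells of day 3, which have few UMIs.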
